A study of Homo sapiens with 33 samples.

Results

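LIN28A, LIN28B and SALL4 are 3 genes of the pluripotent state whose transcripts were followed here through the differentiation of human H9 embryonic stem cells, an established cell line, toward neural cells and nociceptors. They are 3 of 10038 genes tested. The members were chosen by gene symbol because their measured signal stayed high in cells treated with LSB while core pluripotency genes fell. Their LSB values, and the comparison of LSB3i with LSB, are therefore given as a description with no test. Changes within LSB3i, which the stated reason for that choice does not name, were tested. Earlier results of these data were known when the members were chosen, so the members' p-values may not be independent of the choice.

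Total RNA was measured on 33 Illumina bead arrays: 11 combinations of treatment and day, each with 3 arrays lettered A, B and C. H9 cells were kept on mouse embryonic fibroblasts and then plated on Matrigel. LSB cells received LDN-193189 and SB431542, inhibitors of BMP and TGF-beta/Activin receptor signalling that turn embryonic stem cells toward a neural fate, and were collected at days 2 and 3 and again at days 5, 7, 9 and 15. LSB3i cells received both inhibitors together with CHIR 99021 (an inhibitor of the kinase GSK3), DAPT (which blocks gamma-secretase, the protease that activates Notch) and SU5402 (which blocks the kinases of FGF and VEGF receptors), and were collected on the same days from day 3 on. LSB3i cells at day 2, and undifferentiated cells, were not analysed here. Separate cultures for arrays A, B and C are not stated in the labels, so each error and p-value measures the spread between these arrays, which may be technical. In a bulk sample, fewer cells of a type and less RNA per cell cannot be told apart.

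LIN28A and LIN28B are paralogous RNA-binding proteins with a cold-shock domain and zinc knuckles. They bind precursors of the let-7 microRNAs and keep them from being processed, and they also bind messenger RNAs. LIN28A acts in the cytoplasm, where it recruits terminal uridylyl transferases to the let-7 precursor, and LIN28B has also been described in the nucleus. Mature let-7 in turn represses LIN28 messages, together with those of growth and cell cycle genes, so the pair form a switch between early and later developmental states. SALL4 is a zinc finger transcription factor of the spalt-like family that is expressed in embryonic stem cells and germ cells and recruits the NuRD histone deacetylase complex.

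The let-7 microRNAs are shown because they are the best known ligands of the LIN28 proteins. The arrays did not measure mature let-7, but 3 transcripts that span let-7 genes were measured. MIR99AHG spans let-7c on chromosome 21, WDR82 spans let-7g on chromosome 3, and HUWE1 spans let-7f-2 and miR-98 on chromosome X. The mature sequences from RefSeq are given 5′ to 3′, with the seed (bases 2 to 8), which pairs with target messages, in capitals.
let-7c: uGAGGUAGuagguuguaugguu
let-7g: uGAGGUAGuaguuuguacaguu
let-7f: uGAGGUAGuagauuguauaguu
miR-98: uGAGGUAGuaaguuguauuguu
All 9 distinct mature sequences of the family's 12 human hairpins carry this 1 seed. The hairpins follow (RefSeq, GRCh38.p14), with each GGAG that lies after the 5′ arm in capitals. GGAG is the motif that the zinc knuckles of LIN28 recognise where it lies in the terminal loop; in let-7c the last capitals lie at the 3′ end of the hairpin, outside the loop.
let-7c: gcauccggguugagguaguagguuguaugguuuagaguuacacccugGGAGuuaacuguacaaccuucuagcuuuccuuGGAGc
let-7g: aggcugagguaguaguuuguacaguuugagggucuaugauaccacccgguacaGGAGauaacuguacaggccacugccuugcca
let-7f-2: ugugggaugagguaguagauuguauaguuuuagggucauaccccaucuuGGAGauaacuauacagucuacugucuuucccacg
miR-98: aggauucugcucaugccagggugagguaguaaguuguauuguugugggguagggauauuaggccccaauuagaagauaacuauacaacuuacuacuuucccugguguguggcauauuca
The motif was present in 9 of the 12 hairpins and absent from those of miR-98, let-7a-3 and let-7b. Of all 1134 human hairpins with a 5′ mature sequence in the same table, 224 (19.8%) hold it after the 5′ arm. The motif was searched on the RNA strand as written, its matches do not overlap other motifs searched, and a match is a description of letters, not of binding.

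Each gene was read by 1 probe, and each was detected on all 33 arrays (detection p under 0.01). LIN28A lies on chromosome 1 from 26410817 to 26429728, LIN28B on chromosome 6 from 104937026 to 105083332 and SALL4 on chromosome 20 from 51782331 to 51802521 (GRCh38.p14, RefSeq gene spans). Levels below are log2 intensities after background correction and quantile normalization, and differences are on the log2 scale. Levels of different probes are not compared, since probes differ in brightness for the same amount of RNA.

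Mean raw signal per array ran from 298.2 to 871.6, and 9320 to 13743 probes were detected per array. The 3 arrays of LSB day 7 were dim (298.2 to 496.4), and array C was the dimmest of all. Arrays lettered A of LSB3i days 3 to 9 stood apart from B and C: at day 3 the pluripotency gene L1TD1, an RNA-binding protein of embryonic stem cells, read 13.04 on array A against 10.5 and 10.31 on arrays B and C. Markers followed the labels otherwise. The mean of 10 neural progenitor markers was 11.55 to 11.62 on the LSB day 15 arrays and 8.07 to 8.30 on the LSB3i day 15 arrays, while the mean of 15 neuronal markers was 7.13 to 7.26 and 12.88 to 12.94.

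LIN28A was bright in every LSB group and ended where it began. It read 13.37, 13.47 and 13.37 on the 3 arrays of LSB day 2, 14.14, 14.18 and 14.09 at day 3, and 14.07, 13.97 and 14.19 at day 5. At day 9 it read 13.79, 13.77 and 13.62, and at day 15 it read 13.49, 13.11 and 13.48. The day 15 arrays thus overlapped those of day 2, and days 3, 5 and 9 lay above day 2 on every array. At day 7 arrays A and B read 13.5 and 13.69 but array C read 9.79, from a raw intensity of 396 against 7409 and 7280, so the day 7 mean of 12.33 ± 2.2 (SD, n = 3) rests on that array.

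LIN28B kept within 12.23 to 12.83 in its LSB group means. It read 12.14, 12.31 and 12.26 at day 2, and 12.75, 12.82 and 12.91 at day 9. At day 15 it read 12.7, 12.09 and 12, a range that holds all 3 day 2 values. The group means of days 3 and 5 were 12.63 ± 0.158 and 12.80 ± 0.0369 (SD, n = 3).

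SALL4 read higher at days 3, 5 and 9 of LSB than at either end. It read 11.05, 11.27 and 11.33 at day 2, 11.82, 12.11 and 12.23 at day 3, and 12.17, 11.83 and 12.28 at day 5. At day 7 it read 11.73, 12.22 and 10.83, which overlaps day 2. Its highest group was LSB day 9, at 12.74, 12.41 and 12.29. At day 15 it read 10.7, 11.22 and 10.92, again within reach of the day 2 arrays.

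All 3 genes read higher soon after day 2. At day 3, all 3 arrays lay above all day 2 arrays for 3 of 3 members, as they did for 21.5% of all genes tested. The same held for 3 of 3 at day 5 (28.7% of all genes) and at day 9 (31.4%). At day 7 the arrays of each member overlapped those of day 2. At day 9 the difference from day 2 was 0.32 ± 0.52 for LIN28A, 0.59 ± 0.18 for LIN28B and 1.26 ± 0.25 for SALL4 (estimate ± SE). LIN28A's SE is that large because all groups share 1 spread per gene, array C of day 7 included.

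From day 2 to day 15 of LSB the difference was -0.04 ± 0.52 for LIN28A, 0.03 ± 0.18 for LIN28B and -0.27 ± 0.25 for SALL4, and the arrays overlapped for each. Called genes here and below have a Benjamini-Hochberg adjusted p under 0.05 from limma and a change of at least 2-fold. By that rule 14.4% of all genes were higher and 12.4% lower at day 15 than at day 2. When arrays were scaled to a common median in place of quantile normalization, the members' differences were -0.75, -0.57 and -0.72 in the same order. That scaling moved the median of all genes from 0.012 to -0.263. From day 9 to day 15 of LSB, all 3 arrays were lower for 3 of 3 members (25% of all genes), with differences of -0.37 for LIN28A, -0.57 for LIN28B and -1.54 for SALL4.

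**Figure D1:**
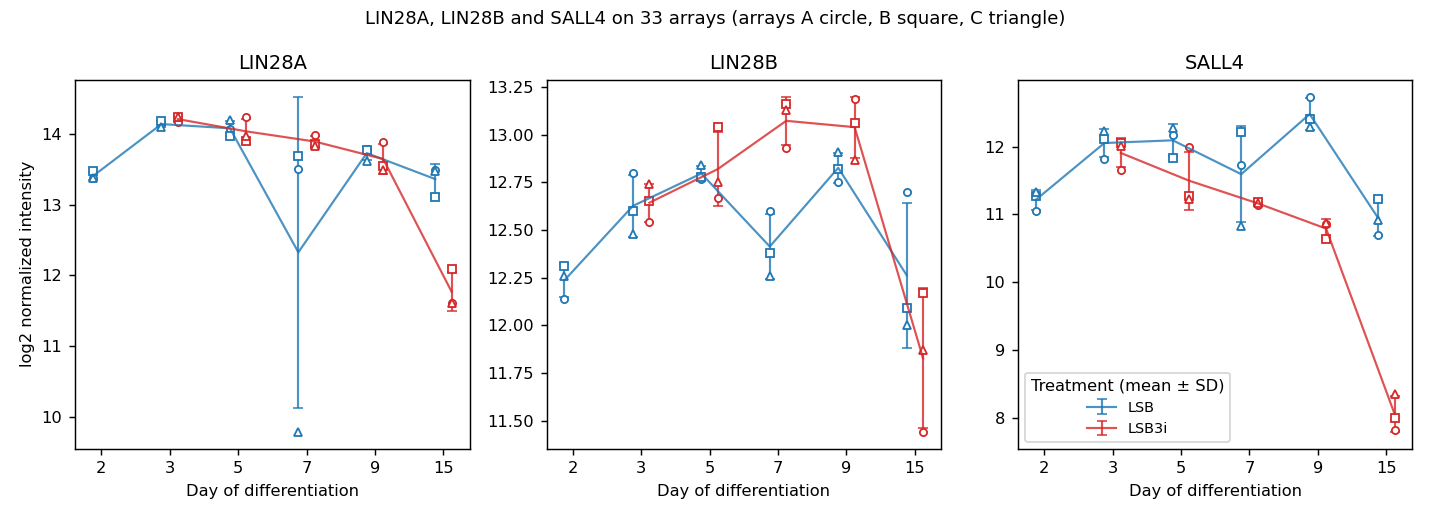
Log2 normalized intensity of LIN28A, LIN28B and SALL4 (1 panel each, y axis) by day of differentiation (x axis, days evenly spaced) in LSB (blue) and LSB3i (red). Symbols are single arrays and lines join group means with SD bars (n = 3). SALL4 separates between treatments by day 9, all 3 genes are lowest at LSB3i day 15, and LIN28A on array C of LSB day 7 lies at 9.79.

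The core pluripotency genes were lower late in LSB, which is what the members were chosen against. Of 16 such genes tested (23 had a probe), 13 were lower and 1 higher at day 15 than at day 2, beside 12.4% lower and 14.4% higher of all genes, with a median difference of -2.29 beside 0.01. These counts are a description with no test, since the fall of such genes chose the members. With genes at background set to the smallest fold the arrays allow, the median was -2.24. POU5F1, the central transcription factor of pluripotency, read 8.75, 9.24 and 9.48 at day 2 and 6.51, 7.95 and 6.35 at day 15, where 1 of 3 arrays detected it. Its difference was -2.22, and -1.35 in the authors' processed values. DNMT3B, a DNA methyltransferase of early embryonic cells, was 5.06-fold lower. ZFP42, a zinc finger marker of embryonic stem cells, was 6.47-fold lower, DPPA4 4.67-fold lower and L1TD1 7.92-fold lower.

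Part of this list was higher again at LSB day 15 than at day 9. NANOG, a pluripotency transcription factor, was not well above background on any array of days 3, 5, 7 and 9, and read 7.77, 7.84 and 7.73 at day 15, below its 9.55 to 9.76 of day 2. LEFTY2, a secreted antagonist of Nodal signalling, was not well above background in the other 10 groups and read 11.74, 12.27 and 11.59 at LSB day 15, at least 34.2-fold above day 2. It was the 1 gene of the list counted as higher over LSB. Its probe was kept only because LSB day 15 detected it, so that count is fixed in part by the filter. POU5F1 was detected on 1 of 3 arrays there, at 7.95. The mean over the 16 genes ran from 7.82 to 7.87 on the LSB day 9 arrays and from 8.35 to 8.65 on those of day 15. The members' levels at LSB day 15 stand beside these values, and their part in the result was not tested.

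Up to day 9 of LSB3i, SALL4 and LIN28A read lower and LIN28B higher than at day 3. LIN28A read 14.16, 14.23 and 14.23 at day 3, 14.23, 13.9 and 13.97 at day 5, 13.98, 13.86 and 13.83 at day 7, and 13.89, 13.55 and 13.49 at day 9. Its arrays of days 7 and 9 all lay below those of day 3, within a narrow band. LIN28B read 12.54, 12.65 and 12.74 at day 3, 12.93, 13.16 and 13.13 at day 7, and 13.19, 13.06 and 12.87 at day 9, with all arrays of days 7 and 9 above those of day 3. SALL4 read 11.66, 12.05 and 12.01 at day 3, 11.99, 11.27 and 11.23 at day 5, 11.14, 11.18 and 11.17 at day 7, and 10.86, 10.63 and 10.88 at day 9. Its arrays of days 7 and 9 all lay below those of day 3. Such separation from day 3 was common. At day 7, 18.1% of all genes were lower and 21% higher on every array, and at day 9 25.2% and 24.9%.

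None of the 3 was called at day 5 against day 3, where 1.88% of all genes were. None was called at day 7, where 11.2% of all genes were. SALL4 was then 1.68-fold lower (-0.74 ± 0.25, limma adjusted p = 0.0411), short of the 2-fold limit, and its adjusted p was 0.401 under median scaling. At day 9 SALL4 fell 2.17-fold (-1.12 ± 0.25, limma adjusted p = 0.00142), 1 of 3 members called lower beside 8.35% of all genes. Under median scaling its log2 difference was -1 with an adjusted p of 0.0542, which ends the call.

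The LIN28 genes did not pass at day 9. LIN28B was 0.40 ± 0.18 above day 3 (limma adjusted p = 0.105) and higher on 3 of 3 arrays. LIN28A was at -0.57 ± 0.52 (limma adjusted p = 0.469), and lower on 3 of 3 arrays. When array C of LSB day 7 was left out of the fit, the same LIN28A difference had an SE of 0.15 and an adjusted p of 0.00391, still under 2-fold.

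At day 15 of LSB3i all 3 genes were at their lowest. LIN28A read 11.61, 12.09 and 11.61, LIN28B read 11.44, 12.17 and 11.87, and SALL4 read 7.82, 8 and 8.35. Every one of these arrays lay below every LSB3i array of days 3, 5, 7 and 9 for the same gene. Against day 3 alone, 34.9% of all genes were lower on every day 15 array. SALL4 was close to background there, with a detection p of 0.00132 on arrays A and B and raw intensities of 305, 363 and 410.

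Against day 3, LIN28A fell 5.41-fold (-2.44 ± 0.52, limma adjusted p = 0.000253) and SALL4 fell 14.4-fold (-3.85 ± 0.25, limma adjusted p = 2.02e-12). LIN28B was 1.76-fold lower (-0.82 ± 0.18, limma adjusted p = 0.000341), under the 2-fold limit. So 2 of 3 members were called lower, beside 22.9% of all genes lower and 19.6% higher. Scaling to a common median, which moved the median of all genes from -0.111 to -0.804, gave -3.45 for LIN28A, -4.55 for SALL4, and -1.75 with a call for LIN28B (adjusted p = 2.92e-05). SALL4 was at -3.25 in the authors' processed values.

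Most of the fall came after day 9. From day 9 to day 15 of LSB3i all 3 arrays were lower for 3 of 3 members (30.5% of all genes), with differences of -1.87 for LIN28A, -1.22 for LIN28B and -2.73 for SALL4. In that interval the mean of the neuronal markers lay between 9.18 and 10.68 on the day 9 arrays and between 12.88 and 12.94 on the day 15 arrays. The mean of 10 neural crest markers lay between 9.12 and 9.88 and between 9.26 and 9.43. None of the 15 neuronal markers and 1 of the 10 neural crest markers (PAX3) was at background on all day 15 arrays. Their part in the members' fall was not tested.

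The core pluripotency genes, which were tested in LSB3i, had largely fallen by day 9. Of 16 genes, 12 were lower and 1 higher at day 9 than at day 3, beside 8.35% lower and 8.48% higher of all genes. At day 15, 13 were lower and 1 higher (22.9% and 19.6% of all genes), and the median was -2.78 beside -0.11 over all genes (-1.90 with genes at background set to their bound). DNMT3B fell 5.79-fold by day 9 and 9.78-fold by day 15. The day 15 fall was 5.63-fold when its probes were averaged and 16-fold under median scaling. ZFP42 fell 2.47-fold by day 9. At day 15 it read 8.12, 5.11 and 5.54 and was detected on array A alone, so the size of its fall depends on the setting: the log2 difference from day 3 was -5.89, with -6.82 without array A, -4.87 at the larger offset and -4.3 in the authors' processed values. POU5F1 fell at least 2.70-fold and was not well above background on any day 15 array. PODXL, a surface sialomucin of embryonic stem cells, fell by 5.55 on the log2 scale by day 15, with -6.24 under median scaling and -4.71 in the authors' processed values. The 1 higher gene was FOXD3, which is also a transcription factor of the neural crest and rose at least 1.28-fold. It was at background in every LSB group and at LSB3i days 3 and 5. Its probe was thus kept only through later LSB3i groups, so its rise is a description with no test. In the authors' processed values its log2 difference was 0.74, which ended the call.

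**Figure D2:**
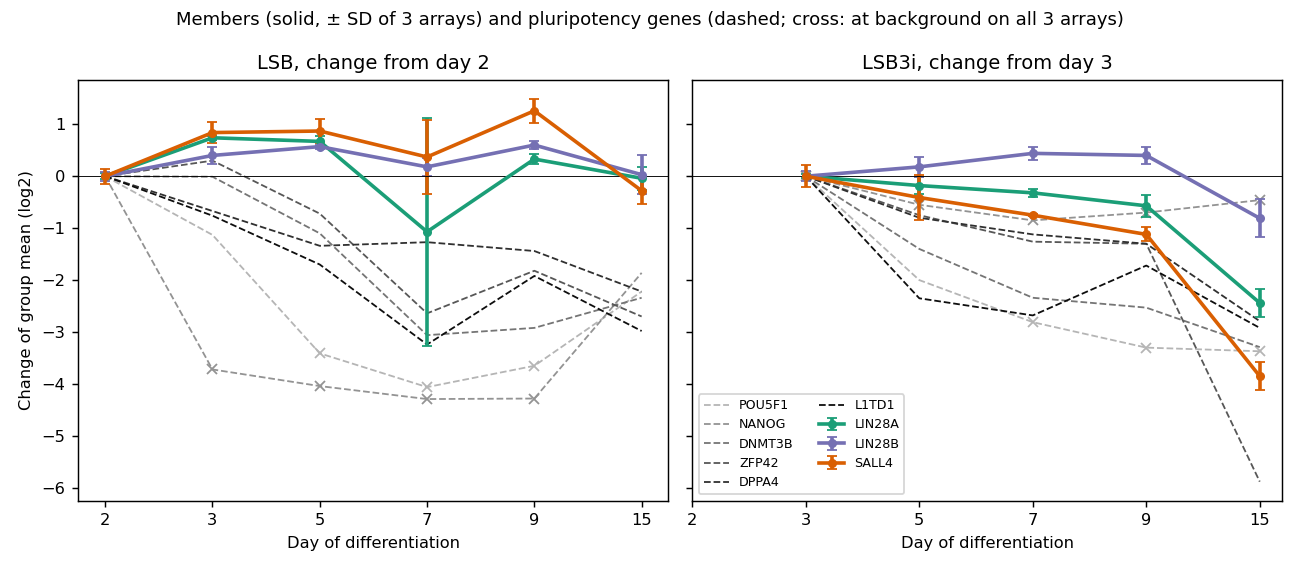
Change of the group mean (log2, y axis) from day 2 in LSB (left) and from day 3 in LSB3i (right) by day (x axis, evenly spaced). Solid lines are LIN28A, LIN28B and SALL4 with the SD of 3 arrays, dashed lines are POU5F1, NANOG, DNMT3B, ZFP42, DPPA4 and L1TD1, and crosses mark means at background on all 3 arrays. In LSB the members end near 0 at day 15 while the dashed lines end at or below -1.86; in LSB3i SALL4 ends at -3.85, LIN28A at -2.44 and LIN28B at -0.82.

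Set side by side at each day, SALL4 was the member that lay apart between treatments at day 9. At day 3 the LSB3i minus LSB difference was 0.07 for LIN28A, 0.02 for LIN28B and -0.15 for SALL4, and at day 5 it was -0.04, 0.02 and -0.60. The arrays of both treatments overlapped for each gene at both days. At day 7 the differences were 1.56, 0.66 and -0.43. All LSB3i arrays lay above all LSB arrays for LIN28A and LIN28B, as for 19% of all genes, and overlapped for SALL4. These values rest on the dim LSB day 7 arrays, and that of SALL4 was 1.08 under median scaling, so no direction is given for it. At day 9 they were -0.09 ± 0.52 for LIN28A, 0.21 ± 0.18 for LIN28B and -1.69 ± 0.25 for SALL4.

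SALL4 was the 1 of 3 members whose LSB3i arrays all lay below the LSB arrays at day 9, a state that 27.7% of all genes shared. Its 3 LSB3i arrays read 10.63 to 10.88 and its 3 LSB arrays 12.29 to 12.74. At day 15 the differences were -1.59 ± 0.52 for LIN28A, -0.44 ± 0.18 for LIN28B and -2.89 ± 0.25 for SALL4. All LSB3i arrays were lower for LIN28A and SALL4, 2 of 3 members beside 26.4% of all genes, and overlapped for LIN28B. SALL4 was 7.39-fold and LIN28A 3.01-fold lower in LSB3i at that day. The fold for SALL4 depends on the background correction, with -2.56 at the larger offset and -2.34 in the authors' processed values.

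Over all 11 groups, the order of levels ran from LSB3i day 3 (14.21) down to LSB3i day 15 (11.77) for LIN28A. Neighbours in that order overlapped on their arrays except between LSB3i day 7 and LSB day 9, and between LSB3i day 9 and LSB day 2. For LIN28B the order ran from LSB3i day 7 (13.08) to LSB3i day 15 (11.83), and LSB day 5 and LSB3i day 3 were the neighbours without overlap. For SALL4 it ran from LSB day 9 (12.48) to LSB3i day 15 (8.06), and both of those end groups stood clear of their neighbours. LSB3i day 15 was last for each gene.

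The 3 patterns resembled each other in part. Pearson's r of the 11 group means was 0.75 between LIN28A and LIN28B, 0.75 between LIN28A and SALL4, and 0.63 between LIN28B and SALL4, and without LSB day 7 it was 0.78, 0.92 and 0.66. These points share arrays, so they are a description with no p. Across all genes tested, the closest to LIN28A was PIK3C3 (r = 0.976), a class III phosphatidylinositol 3-kinase, followed by RPS18, EIF3A, ARPP19 and AMMECR1 (0.966 to 0.962). The closest to LIN28B was ZNF562 (0.96), followed by OSBPL11, SRSF1, NEK3 and UBE3D (0.957 to 0.945). The closest to SALL4 was PLAG1 (0.982), a zinc finger transcription factor, followed by FBXW8, DFFA, CETN3 and RPL26 (0.98 to 0.977). PLAG1 read 10.29 at LSB day 9 and 7.32 at LSB3i day 15, its highest and lowest groups. Without LSB day 7, the first place went to HNRNPA1 for LIN28A (0.984), STK4 for LIN28B (0.969) and CETN3 for SALL4 (0.989).

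Genes known as let-7 targets, reported to pair with the seed shown above, were read on the same arrays. Of 18 tested (23 had a probe), 5 were higher and 0 lower at LSB day 15 than at day 2, with a median difference of 0.65 beside 0.01 over all genes (14.4% called higher and 12.4% lower). PLAGL2, a zinc finger transcription factor, rose 5.28-fold (limma adjusted p = 2.06e-05), from 7.8, 7.97 and 5.55 to 9.56, 9.31 and 9.65. Array C of day 2, where it was not detected, was far below the other pair, and without it the rise was 3.08-fold (1.62 on the log2 scale). CCND2 and CCND1, which encode D-type cyclins, rose 2.77-fold and 2.17-fold, ARID3A, a DNA-binding protein, 2.31-fold, and CDC34, a ubiquitin-conjugating enzyme, 2.02-fold. Under median scaling 1 of the 5 calls, that of PLAGL2, was left. CDC34 and CCND1 also lost their calls when single arrays were left out, array B of day 15 for both, array C of day 2 for CDC34, and array A or B of day 2 for CCND1.

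In LSB3i, 4 of the 18 targets were higher and 2 lower at day 15 than at day 3 (19.6% and 22.9% of all genes), with a median of 0.53 beside -0.11. CDK6, a G1 kinase, rose 5.26-fold (limma adjusted p = 0.000286), from 8.7, 8.09 and 7.99 to 10.69, 10.7 and 10.58. MYC, a growth-promoting transcription factor, rose 4.19-fold and MAP4K4, a kinase, 2.49-fold. The rise of MYC was 2.43-fold when its probes were averaged and 2.78-fold in the authors' processed values. CCND1 rose 2.25-fold. The calls of CCND1 and MAP4K4 were lost under median scaling.

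TRIM71, the human counterpart of the worm let-7 target lin-41 and a ubiquitin ligase and RNA-binding protein of early embryos, fell. It read 10.81, 10.64 and 10.51 at day 3 and 8.62, 9.03 and 8.21 at day 15, a 4.10-fold fall (-2.03 ± 0.27, limma adjusted p = 4.81e-07). By day 9 it had fallen 2.55-fold. HMGA1, a chromatin protein that binds AT-rich DNA, fell 2.59-fold, from 13.13, 13.23 and 12.92 to 11.77, 11.7 and 11.69. Both kept their calls in all 18 alternative settings. The groups of each did not overlap.

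IGF2BP3, an RNA-binding protein of fetal tissue, stayed under the 2-fold limit in LSB3i (-0.76 ± 0.17, limma adjusted p = 0.000343), as did ARID3B (0.90 ± 0.17, adjusted p = 4.22e-05) and DICER1 (0.88 ± 0.24, adjusted p = 0.0031). DICER1 cuts the let-7 precursor and is itself a target. IGF2BP2 was at 0.33 ± 0.20 (adjusted p = 0.143). HMGA2 and IGF2BP1 did not pass the filter on dim probes.

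Between treatments at day 9, 3 of the 18 targets were higher and 2 lower in LSB3i (8.32% and 8.26% of all genes). MYCN was 5.84-fold, RRM2, a subunit of ribonucleotide reductase, 6.54-fold and CDK6 4.56-fold higher, while MYC was 3.84-fold and TRIM71 2.47-fold lower. At day 15, 3 were higher and 1 lower (13.3% and 15.8% of all genes). CDK6 was 3.48-fold, RRM2 2.22-fold and MAP4K4 2.22-fold higher, and HMGA1 was 2.67-fold lower, at 11.69 to 11.77 in LSB3i against 12.99 to 13.26 in LSB. RRM2 and MAP4K4 lost their calls without array C of LSB day 15.

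**Figure D3:**
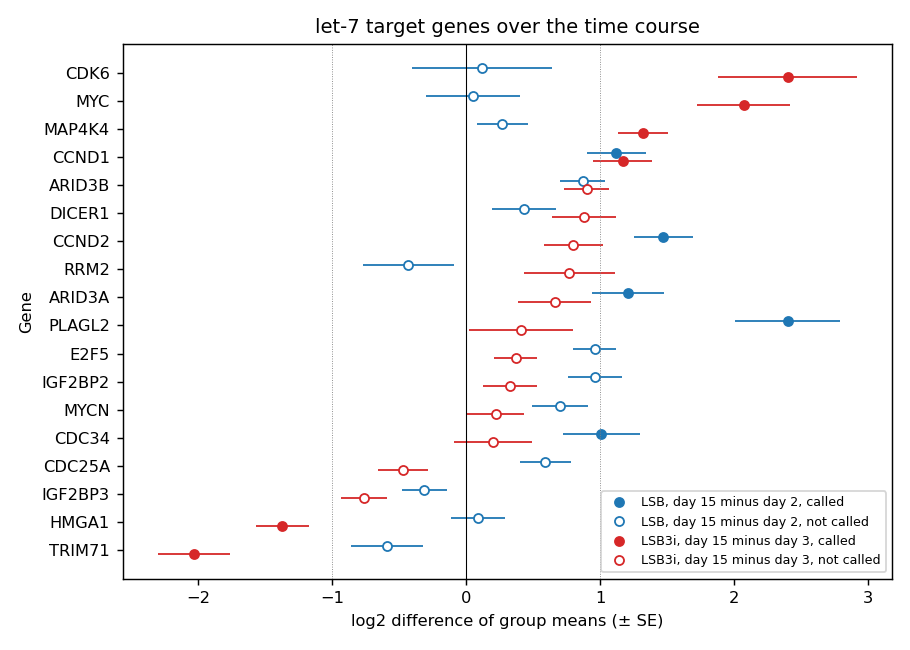
Log2 difference of group means with its SE (x axis) for 18 let-7 target genes (y axis), from day 2 to day 15 of LSB (blue) and from day 3 to day 15 of LSB3i (red). Filled points passed the limma test and the 2-fold limit marked by dotted lines. TRIM71 and HMGA1 are the filled points to the left of -1, both in LSB3i.

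Of the 3 transcripts that span let-7 genes, 2 were higher and 0 lower at LSB day 15 than at day 2, MIR99AHG and HUWE1. The shares of all genes were 14.4% and 12.4%. From day 3 to day 15 of LSB3i, 2 were higher and 0 lower, MIR99AHG and WDR82, beside 19.6% and 22.9% of all genes. MIR99AHG, a long non-coding RNA that hosts let-7c, was not well above background at LSB days 2 to 9 and read 6.66, 7.21 and 7.37 at day 15, where 2 of 3 arrays detected it, at least 1.24-fold higher (limma adjusted p = 4.84e-06). In the authors' processed values its log2 difference over LSB was 0.7, which ended the call. In LSB3i MIR99AHG read 5.34, 4.86 and 5.1 at day 3, not well above background, and 7.68, 8.06 and 8.15 at day 15. This was a rise of at least 2.14-fold, with detection on all 3 arrays at day 15. No other group detected it on all 3 arrays, so its probe was kept only through the group where it was highest. Its rise in LSB3i, and its place in the count there, are therefore a description with no test.

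WDR82, a subunit of a histone methyltransferase complex and the gene that spans let-7g, rose 3.34-fold from day 3 to day 15 of LSB3i (limma adjusted p = 3.94e-07), from 9.52 to 9.8 up to 11.04 to 11.67, and lost its call under median scaling (0.90). HUWE1, a ubiquitin ligase, was 2.09-fold higher at LSB day 15 than at day 2 (limma adjusted p = 0.00962), a call that 5 of 18 alternatives ended, among them those without array B of day 2 and without array C of day 15. A host transcript does not measure mature let-7.

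Genes of microRNA processing and LIN28's known partners were read next. Of 19 tested (21 had a probe), 2 were higher and 0 lower at LSB day 15 than at day 2 (14.4% and 12.4% of all genes), with a median of 0.24 beside 0.01. They were AGO1, an Argonaute protein that carries microRNAs (4.35-fold), and MSI1, an RNA-binding protein of neural progenitors known to bind LIN28 in mouse cells (at least 3.45-fold). In LSB3i, AGO1 rose 3.79-fold and HNRNPA1, an RNA-binding protein that binds let-7 precursors, fell 7.18-fold from day 3 to day 15, 1 higher and 1 lower of 19 (19.6% and 22.9% of all genes), with a median of 0.02 beside -0.11. At LSB3i day 15 HNRNPA1 read 6.78, 8.56 and 8.39, and 2 of 3 arrays detected it. Its fall was 4.61-fold in the authors' processed values and 11.2-fold under median scaling. Between treatments, 3 of the 19 genes were higher and 1 lower at day 9 (8.32% and 8.26% of all genes). At day 15, 0 were higher and 3 lower (13.3% and 15.8%). TUT4, a uridylyl transferase that LIN28A recruits, was 2.89-fold lower in LSB3i at day 9 (limma adjusted p = 7.79e-05).

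The spalt-like family and the NuRD complex give the setting of SALL4. SALL2, a paralogue expressed in the developing nervous system, rose over LSB. It read 11.35, 11.52 and 12.03 at LSB day 2 and 12.99, 12.62 and 12.9 at day 15, a 2.30-fold rise (limma adjusted p = 0.000314) that median scaling ended (adjusted p = 0.0723). In LSB3i it read 11.83, 11.36 and 11.1 at day 3 and 10.96, 10.82 and 11.29 at day 15, which overlap. At day 9 it read 10.87, 10.56 and 10.31 in LSB3i and 13.36, 13.24 and 13.15 in LSB. It was 6.37-fold lower in LSB3i than in LSB at day 9 (limma adjusted p = 1.1e-08) and 3.52-fold lower at day 15. SALL3 was 2.57-fold lower in LSB3i at day 9 and 2.79-fold higher at day 15. Both calls were lost at the larger offset and in the authors' processed values. The day 15 call was also lost when only the groups compared were fitted. It was lost too without array B of LSB, where SALL3 read 5.52 against 7.2 and 7.77. SALL1 was dim, with no array over 7.79.

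Of 14 genes of the spalt-like family and NuRD tested (15 had a probe), 2 were higher and 2 lower at LSB day 15 than at day 2 (14.4% and 12.4% of all genes), with a median of 0.29 beside 0.01 (0.19 with genes at background set to their bound). CHD4, the main ATPase of NuRD, rose 2.54-fold with SALL2, and MTA3, a NuRD subunit, fell 2.55-fold with SALL3. The call of SALL3 was lost without array A or B of day 2 or array B of day 15. It was also lost at the larger offset, in the authors' processed values and when only the groups compared were fitted.

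In LSB3i the same genes were 1 higher and 5 lower at day 15 than at day 3 (19.6% and 22.9% of all genes), with a median of -0.46 beside -0.11. MTA3 fell 8.90-fold (-3.15 ± 0.23, limma adjusted p = 1.68e-11), from 11.62, 11.47 and 11.07 to 8.42, 7.9 and 8.38. It was lower on every day 7, 9 and 15 array than on every day 3 array. MBD2, a methyl-CpG binding subunit, fell 4.42-fold (limma adjusted p = 6.09e-10), from 9.82, 9.2 and 9.22 to 7.56, 7.1 and 7.14. HDAC1, a histone deacetylase, fell 3.14-fold, RBBP7 2.95-fold and RBBP4 2.66-fold, both histone-binding chaperones. HDAC2, the paralogue of HDAC1, was at 0.04 ± 0.25.

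CHD4 rose 2.12-fold in LSB3i, a call lost without array C of day 15 and under median scaling, where its adjusted p was 0.562. The call of RBBP4 was lost when its probes were averaged (-0.35), at the larger offset and in the authors' processed values (-0.61). At LSB3i day 15 RBBP4 read 7.33, 5.88 and 5.44, and 1 of 3 arrays detected it. Between treatments, 0 were higher and 5 lower in LSB3i at day 9, beside 8.32% and 8.26% of all genes, with a median of -0.55, or -0.38 with bounds. At day 15, 1 was higher and 5 lower, beside 13.3% and 15.8% of all genes, with a median of -0.69. RBBP4, among those 5, lost its call in 8 of 18 alternatives. MTA3 was 2.44-fold lower in LSB3i at day 9 and 4.28-fold lower at day 15, and MBD2 was 2.37-fold and 4-fold lower. At these days SALL4 was itself lower in LSB3i, by the values given above.

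**Figure D4:**
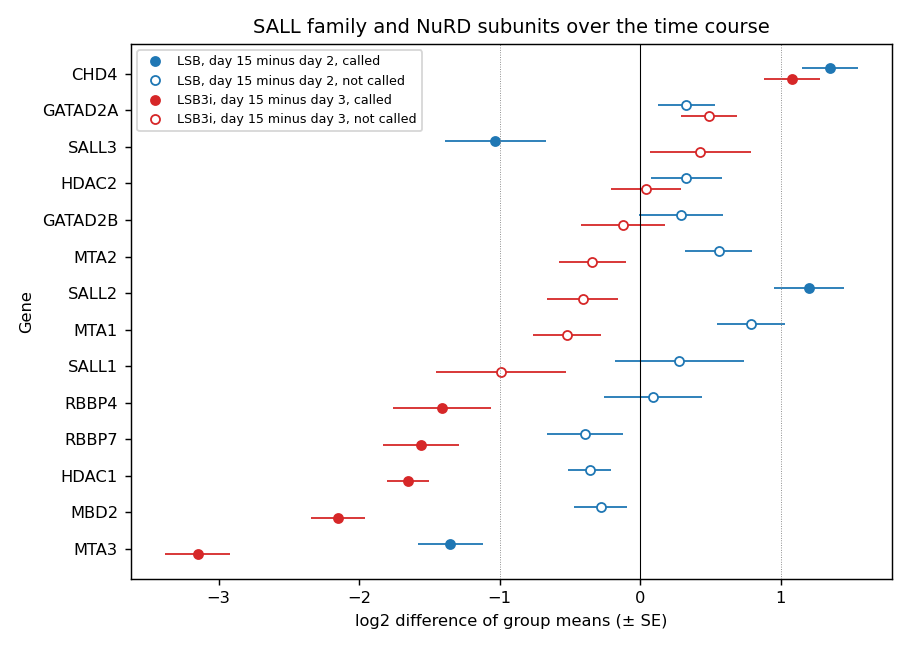
Log2 difference of group means with its SE (x axis) for 14 spalt-like family and NuRD genes (y axis), from day 2 to day 15 of LSB (blue) and from day 3 to day 15 of LSB3i (red). Filled points passed the limma test and the 2-fold limit marked by dotted lines. MTA3 is lowest in both treatments (-1.35 and -3.15), and MBD2, HDAC1, RBBP7 and RBBP4 are filled in LSB3i alone.

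Germ cells also express LIN28A and SALL4, so their markers were read on the same arrays. Of 10 germ cell markers 4 could be tested. Their mean was 8.18 to 8.33 at LSB day 2 and 7.23 to 7.57 at day 15, and 6.53 to 7.07 at LSB3i day 15. DAZL was at background on all arrays of both day 15 groups. From day 2 to day 15 of LSB, 1 was called higher and 2 lower (14.4% and 12.4% of all genes). From day 3 to day 15 of LSB3i, 1 was called higher and 3 lower (19.6% and 22.9%). NANOS3 was the higher one in both treatments, and its LSB call was lost in the authors' processed values. It was at background on all arrays before day 15, so its probe was kept only through day 15 groups. Its rise is therefore a description with no test. Of 13 mesoderm and endoderm markers, 12 had a probe and 3 could be tested, as the rest were too dim in every group or had no probe. Of those 3, 2 were called higher and 1 lower from day 2 to day 15 of LSB (14.4% and 12.4% of all genes). CXCR4 and HAND1 were higher, and AFP was lower and at background on all LSB day 15 arrays. Over LSB3i, 1 was called higher, AFP, and 0 lower (19.6% and 22.9% of all genes). HAND1 was at background on all LSB3i day 15 arrays. The part of either list in the members' levels was not tested.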

How the data were processed

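Per the labels, total RNA of 33 H9 samples was biotin-labelled and hybridised to Illumina bead arrays, and per the submitters' processing notes GenomeStudio was used, with no version given in the sources used here. Non-normalized values were deposited as a linear intensity and a detection p-value for each of 48803 probes. Of these, 28098 carry 1 gene symbol in the platform annotation, 13 several and 20692 none. The intensities were corrected with limma 3.58.1 (R 4.3.3; normexp on detection p-values, offset 16), quantile-normalized and taken to log2. A group whose 3 arrays all gave a detection p under 0.01 was enough to keep a probe (14651 kept), and the brightest probe stood for a gene. A gene could thus be kept only through a group where it was high, and its call for that group is then a description. A limma fit of 11 group means (22 residual degrees of freedom) gave every difference, checked on simulated data. At least N-fold marks a gene not above background in 1 group, set against the dimmest signal the arrays still detected. The authors' processed intensity table, deposited with probe IDs that go with other probes' values (2395 of 48780 rows match), was an alternative after matching by ranks.

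Members and lists were chosen with earlier results of these data known. The named genes are the 3 members, up to 4 called genes at each end of each list and comparison, a preset panel of pluripotency, let-7 target and spalt-like genes, and the 5 genes most like each member. The number of arrays limits the precision. Alternatives were another scaling, background correction, filters, probe rule, samples in the fit, array weights, the array letter as a replicate block and single arrays left out. Array letters did not pair samples across most groups: in 2 of 55 pairs of groups did every same-letter pair correlate over 0.1 in its deviations. Both were neighbouring days of LSB3i. For A, B and C, day 5 with day 7 gave 0.162, 0.121 and 0.13, and day 7 with day 9 gave 0.312, 0.227 and 0.15. The fit of group means did not pair them.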

Additional observations from a re-analysis of the deposited data

Results flagged for a closer look

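LIN28B moved in opposite directions from day 3 to day 7, by -0.21 in LSB and by 0.43 in LSB3i on the log2 scale. The change in LSB3i minus that in LSB was 0.65, with every LSB array of day 7 below the day 3 mean and every LSB3i array above it. This difference was not tested, and the LSB day 7 arrays are the dim ones.

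SALL4 moved in opposite directions from day 3 to day 9, by 0.42 in LSB and by -1.12 in LSB3i. The change in LSB3i minus that in LSB was -1.54. The 3 LSB arrays lay 0.24 to 0.68 above their day 3 mean, and the 3 LSB3i arrays lay 1.03 to 1.28 below theirs, -1.03 to -1.28 on the log2 scale. This difference was not tested.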

How the results depend on the processing

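Median scaling gave -0.75 for LIN28A, -0.57 for LIN28B and -0.72 for SALL4 from day 2 to day 15 of LSB, -3.45 for LIN28A, -4.55 for SALL4 and -1.75 (adjusted p = 2.92e-05) for LIN28B from day 3 to day 15 of LSB3i, 1 let-7 target called from day 2 to day 15 of LSB (5 in the report) and 10 spalt-like and NuRD genes called from day 3 to day 15 of LSB3i (6 in the report). It split all genes into 1105 higher and 4267 lower over LSB3i (1971 and 2296 in the report), and 968 and 1798 over LSB (1442 and 1248). Over LSB3i it also gave larger falls of other named genes, -2.76 for TRIM71, -2.31 for HMGA1, -3.87 for MTA3, -2.75 for MBD2 and -3.49 for HNRNPA1, and smaller rises, 1.65 for CDK6 and 1.35 for MYC. The authors' processed values gave 1.36 for RRM2 between treatments at day 9, 1.2 for AGO1 over LSB and -1.44 for MBD2 over LSB3i. The offset of 50 gave -2.56 and the authors' processed values -2.34 for SALL4 between treatments at day 15, with 3 and 2 spalt-like and NuRD genes called at day 9 in place of 5. The processed values called 1380 genes higher and 1275 lower over LSB3i, and 773 and 597 over LSB. With detection on at least 17 arrays, which leaves fewer genes to test, 7 core pluripotency genes were called over LSB3i in place of 14. The cause of the other shifts was not tested. With the replicate block, SALL4 was at -3.85 (adjusted p = 1.5e-11) over LSB3i, and the block changed no member's call. Leaving out single arrays changed no member's call. The fits without LSB day 7, or without its array C, were chosen after seeing the data, and changed no member's call. Day 7 comparisons with LSB are limited by that group's dim arrays, and SALL4 at LSB3i day 15 by its nearness to background.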
